A study of Mus musculus with 4 samples.

Results

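Extracellular nucleotide signalling was described through 10 genes, out of 24784 in the table: the ectonucleotidase genes Entpd1 and Nt5e, the adenosine receptor genes Adora2a and Adora2b, the ATP-gated channel genes P2rx4 and P2rx7, and the P2Y receptor genes P2ry6, P2ry12, P2ry13 and P2ry14. They were taken by gene symbol, and all 10 were found. Polyadenylated RNA came from cells sorted as tumour-associated macrophages. The mice were males, 6 to 8 weeks old, whose liver tumours followed an injection of Hepa 1-6, a hepatoma line of mouse. The study had 2 libraries with the genotype label OXCT1mKO, which names Oxct1 as the gene that was targeted, and 2 with the label Control, and the tumour cells, sex and age range were the same in both groups. Neither the promoter that drives the deletion, nor the strain, nor whether a library held 1 animal or a pool was stated in the labels. Levels are in RPKM (reads scaled to both gene length and library size), so they can be compared between genes of a library. Between libraries they compare only roughly, because the RPKM sums and the share of globin differed, as given below.

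ATP that leaves stressed or dying cells acts as a danger signal. P2X channels open when they bind ATP, and P2Y receptors are G protein-coupled receptors for ATP, ADP, UDP or UDP-glucose. The membrane enzyme CD39 (Entpd1) strips phosphates from ATP and ADP to give AMP, and CD73 (Nt5e) turns AMP into adenosine, which dampens inflammation through receptors that raise cyclic AMP. Tumour macrophages are known for CD39 and adenosine receptors, while P2ry12 is best known from microglia and platelets.

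Some members are chromosomal neighbours, and the sequences before their starts are shown so that neighbours can be compared. P2ry14, P2ry13 and P2ry12 lie on the minus strand of chromosome 3 (GRCm38), from 59113855 to 59153618, from 59207892 to 59210882 and from 59216272 to 59262871, all 3 inside Med12l, a Mediator subunit gene on the plus strand that runs from 59005825 to 59318682. P2rx7 (chromosome 5, 122643911 to 122691432) and P2rx4 (122707544 to 122729738) follow each other on the plus strand, 16112 bases apart. The 250 bases before each RefSeq start site (build GRCm38.p6) were chr3:59262986-59263235, chr3:59210883-59211132 and chr3:59153493-59153742 on the minus strand, and chr5:122707294-122707543 and chr5:122643677-122643926 on the plus strand. Each is written 5′ to 3′ along its gene, and capitals mark a match to the AP-1 motif.
P2ry12: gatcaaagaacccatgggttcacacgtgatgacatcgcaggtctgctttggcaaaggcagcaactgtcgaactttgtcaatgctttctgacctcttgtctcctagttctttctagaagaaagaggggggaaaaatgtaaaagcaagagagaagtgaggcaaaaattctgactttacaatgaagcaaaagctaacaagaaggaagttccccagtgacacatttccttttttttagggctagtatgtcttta
P2ry13: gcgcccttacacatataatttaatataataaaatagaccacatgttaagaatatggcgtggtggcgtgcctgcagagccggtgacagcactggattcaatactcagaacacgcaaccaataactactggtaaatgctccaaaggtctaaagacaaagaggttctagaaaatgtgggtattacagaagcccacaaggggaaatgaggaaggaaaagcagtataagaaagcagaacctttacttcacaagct
P2ry14: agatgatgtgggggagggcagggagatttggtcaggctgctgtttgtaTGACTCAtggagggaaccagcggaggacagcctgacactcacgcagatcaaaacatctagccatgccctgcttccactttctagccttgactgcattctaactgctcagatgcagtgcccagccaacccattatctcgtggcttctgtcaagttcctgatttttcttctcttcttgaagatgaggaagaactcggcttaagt
P2rx4: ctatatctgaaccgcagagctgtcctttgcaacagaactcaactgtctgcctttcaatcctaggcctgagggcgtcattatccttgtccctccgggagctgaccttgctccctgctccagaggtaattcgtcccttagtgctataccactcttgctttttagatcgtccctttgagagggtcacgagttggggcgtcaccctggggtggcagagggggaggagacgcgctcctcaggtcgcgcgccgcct
P2rx7: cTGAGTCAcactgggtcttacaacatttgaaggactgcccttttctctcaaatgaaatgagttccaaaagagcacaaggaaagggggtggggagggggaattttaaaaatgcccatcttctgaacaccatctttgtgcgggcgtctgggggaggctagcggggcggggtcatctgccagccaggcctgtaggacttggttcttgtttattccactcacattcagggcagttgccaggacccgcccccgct
The motif letters searched on both strands were TGANTCA for AP-1, GAGGAAGT for PU.1, the macrophage lineage factor, and TGACGTCA for the cyclic AMP response element, and no match of one overlapped another. RefSeq windows were found for 8 of the 10 members. The RefSeq start lay 114 bases from the GENCODE gene start in P2ry12, 126 in P2ry14, 412 in Nt5e and 16 in P2rx7. In the other members with a window the 2 starts were the same. In the window nearest each gene's annotated start, AP-1 letters were in P2rx7, 249 bases before the start, and in P2ry14, 202 bases before it, and such letters were in 6.75% of all 32851 windows. PU.1 letters were in 0 of the 8 windows and in 2.44% of all windows, and response element letters in 0 of 8 and in 1.55%. The windows of the neighbouring P2ry12 and P2ry13 both had a GC content of 41.6%, that of P2ry14 50.0%, and those of P2rx4 and P2rx7 57.2% and 53.6%, with a median over all windows of 52.4%.

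Of the 10 members, 5 rose in OXCT1mKO libraries and 0 fell: P2ry13, P2ry14, Entpd1, Adora2b and P2rx4. Their log2 fold changes ran from 0.53 to 1.25, with limma adjusted p between 0.0136 and 0.0287, and the median over the 10 members was 0.88, beside 0.0045 over the 12523 genes tested. By the same test 32.8% of all genes changed, 16.4% upward and 16.4% downward. In 9 of the 10 members both OXCT1mKO libraries lay above both control libraries, the exception being Nt5e, and 37.6% of all tested genes did so, while 37% lay the other way round. The count rested on both OXCT1mKO libraries: the calls were lost when either was left out, for the members as for nearly all genes. Leaving out either control library did not have this effect, for the members or for all genes. With libraries scaled to equal RPKM sums without globin, a setting that shifts the median of all genes to 0.10 and gives 2858 genes higher and 1421 lower in place of 2058 and 2052, 8 members passed upward.

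**Figure D1:**
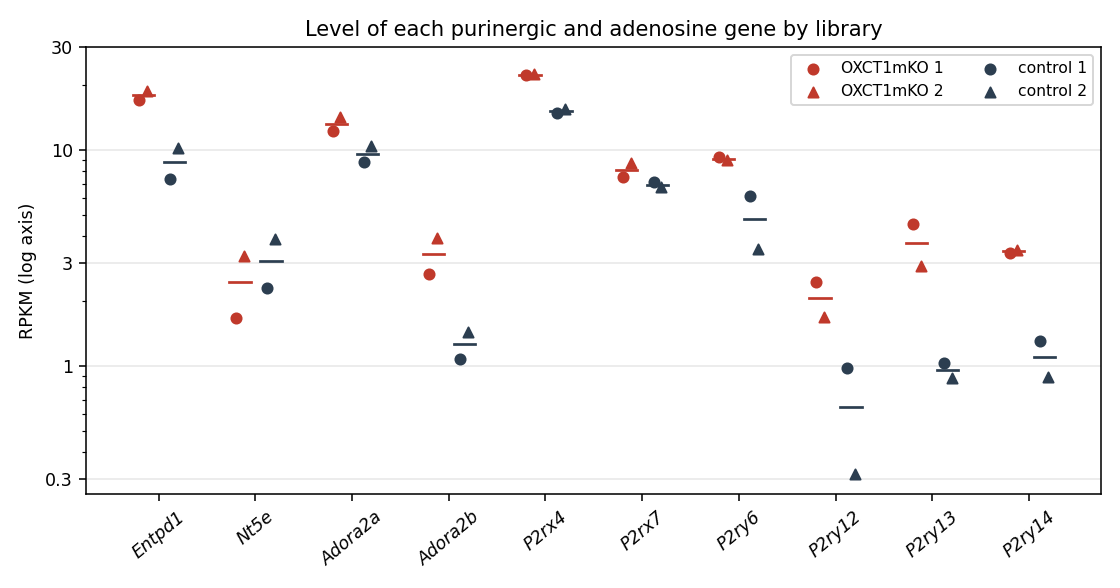
RPKM of the 10 members on a log axis, with the 2 OXCT1mKO libraries (red) left of the 2 control libraries (dark); circles are replicate 1, triangles replicate 2, and horizontal lines the group means. P2rx4 was the most abundant member in all 4 libraries, and the groups overlapped for Nt5e alone.

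The libraries had RPKM sums of 327811 and 325034 in OXCT1mKO and 377575 and 355951 in control. The low values of genes clustered at steps that, with GENCODE exon lengths, match libraries of about 21500000 and 20300000 reads in OXCT1mKO and 22300000 and 22800000 reads in control. The authors' gene lengths are unknown here, so read numbers are approximate and no counting interval is given. Oxct1 itself was at 14.7 and 15.4 RPKM in OXCT1mKO and 19.3 and 20.3 RPKM in control, a log2 fold change of -0.37 ± 0.09 (SE, limma adjusted p 0.0346), or 0.226 without OXCT1mKO 1, 0.163 without OXCT1mKO 2 and 0.0559 without control 2. The adjusted p was 0.0763 with equal RPKM sums (log2 fold change -0.26) and 0.0504 with no minimum level. Globin genes took 6.45% of the RPKM sum in control 1 and as little as 0.0948% in OXCT1mKO.

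Transcripts of other cell types were present in the sorts, and marker levels differed between the groups. Of 8 Kupffer cell markers 7 rose, and their summed level was 466 and 279 RPKM in OXCT1mKO against 35.7 and 39.3 RPKM in control. Of 10 pan-macrophage markers 5 rose (sums of 1558 and 1692 against 1497 and 765), as did 6 of 7 monocyte markers (422 and 338 against 139 and 160), 6 of 7 conventional dendritic cell markers (108 and 142 against 29.1 and 61.7) and 5 of 8 endothelial markers (841 and 767 against 421 and 518). Of 7 T cell markers 4 fell (42.8 and 75.5 against 211 and 131), and of 2 tested platelet markers 1 fell, the chemokine gene Pf4, at 17.3 and 21.7 RPKM in OXCT1mKO against 38.7 and 32.5 RPKM in control. Pf4 made up most of the summed level over 8 platelet genes (21.5 and 25.0 RPKM against 41.5 and 36.1 RPKM). Among the low platelet genes, Itga2b overlapped, and Ppbp, at 1.52 and 0.98 against 0.64 and 0.48 RPKM, and Gp9, at 0.40 and 0.56 against 0.22 and 0 RPKM, were higher in both OXCT1mKO libraries and were not tested. Among the markers counted, Cd163, Flt3 and Xcr1 had control means under 1 RPKM and so entered the test through their OXCT1mKO libraries. No marker of these lists was at 0 in all 4 libraries. In RNA of a bulk sort, a larger share of a cell type and more RNA per cell cannot be told apart, and the part of the cell mix in the differences below was not tested.

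Of the enzyme pair that turns ATP into adenosine, Entpd1 rose and Nt5e did not pass the test. Entpd1, the gene of CD39 (chromosome 19, 40612366 to 40741602, plus strand), was at 17.2 and 18.8 RPKM in OXCT1mKO libraries and at 7.38 and 10.3 RPKM in control libraries. Both OXCT1mKO values lay well above both controls, with means of 18.0 ± 1.13 against 8.82 ± 2.04 RPKM (SD, n = 2 each), a ratio of 2.04. The log2 fold change was 0.96 ± 0.17 (SE, limma adjusted p 0.0185). Nt5e, the gene of CD73 (chromosome 9, 88327197 to 88372092, plus strand), was at 1.67 and 3.25 RPKM in OXCT1mKO and at 2.30 and 3.88 RPKM in control. The groups overlapped, and in each the second library was the higher one. The log2 fold change, -0.25 ± 0.30, missed the threshold (limma adjusted p 0.542), and its sign turned to 0.082 without OXCT1mKO 1, against -0.59 without OXCT1mKO 2, and to 0.030 without control 2. The Nt5e level was 9.74% and 17.3% of the Entpd1 level in OXCT1mKO libraries and 31.2% and 37.8% in control libraries, with no overlap between the groups. An exact two-sided permutation test of this ratio gave p = 0.333, the smallest that 2 libraries against 2 allow, so it does not show that the responses of the genes differ.

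Both adenosine receptors that couple to cyclic AMP production were measured. Adora2b, the lower-affinity receptor (chromosome 11, 62248984 to 62266453, plus strand), was at 2.66 and 3.93 RPKM in OXCT1mKO and at 1.08 and 1.44 RPKM in control, so the groups did not overlap. Its means were 3.30 ± 0.89 against 1.26 ± 0.25 RPKM (SD, n = 2 each), a ratio of 2.61, and the log2 difference was 0.91 ± 0.20 (SE, limma adjusted p 0.0287). The call was lost without control 1 (adjusted p 0.0731) and with no minimum level (0.069). Adora2a, the higher-affinity receptor (chromosome 10, 75316877 to 75334784, plus strand), was at 12.3 and 14.3 RPKM in OXCT1mKO and at 8.79 and 10.5 RPKM in control. It was the more abundant receptor in every library, and its groups did not overlap, yet a log2 fold change of 0.43 ± 0.13 missed the threshold (limma adjusted p 0.063). It passed with equal RPKM sums (0.037) and without control 2 (0.0443). Adora2a was 4.62 and 3.64 times as abundant as Adora2b in OXCT1mKO libraries and 8.11 and 7.27 times in control libraries.

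P2rx4, an ATP-gated channel of lysosomes and the plasma membrane, led the members in level, with a mean above that of 75.1% of tested genes. It was at 22.3 and 22.5 RPKM in OXCT1mKO and at 14.9 and 15.6 RPKM in control, so the libraries of a group lay close together and the groups stood apart. Means were 22.4 ± 0.13 against 15.2 ± 0.50 RPKM (SD, n = 2 each), or 0.53 ± 0.09 as a log2 fold change (limma adjusted p 0.0164). P2rx7, the channel that triggers the Nlrp3 inflammasome at high ATP, was at 7.56 and 8.70 RPKM in OXCT1mKO and at 7.10 and 6.80 RPKM in control. Its groups did not overlap, but they lay close, and with a log2 fold change of 0.20 ± 0.11 the gene missed the threshold (limma adjusted p 0.215). The level of P2rx4 was 2.95 and 2.59 times that of its neighbour P2rx7 in OXCT1mKO libraries and 2.09 and 2.29 times in control libraries.

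P2ry13 had the highest log2 fold change of the 10 members with all 4 libraries, but not without OXCT1mKO 1 (1.00, below the 1.13 of Adora2b, 1.09 of P2ry14 and 1.02 of Entpd1). This ADP receptor was at 4.55 and 2.91 RPKM in OXCT1mKO and at 1.04 and 0.88 RPKM in control. Both OXCT1mKO libraries were clear of the controls, though they differed from each other more than the controls did, with means of 3.73 ± 1.17 against 0.96 ± 0.11 RPKM (SD, n = 2 each). The ratio of means was 3.89 and the log2 fold change 1.25 ± 0.21 (limma adjusted p 0.0171). P2ry14, the receptor for UDP-glucose, was at 3.36 and 3.46 RPKM in OXCT1mKO and at 1.31 and 0.90 RPKM in control. The OXCT1mKO libraries were nearly equal and far above both controls. The ratio of means was 3.10, or 1.08 ± 0.15 as a log2 fold change (limma adjusted p 0.0136).

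P2ry12, the ADP receptor of microglia and platelets, had the lowest mean over the 4 libraries, above that of 4.97% of tested genes, although Nt5e was lower in OXCT1mKO 1. Without OXCT1mKO 1 the mean of P2ry12 lay under the minimum and it was not tested. P2ry12 was at 2.46 and 1.68 RPKM in OXCT1mKO and at 0.98 and 0.32 RPKM in control, the last of these worth about 18 reads. The groups did not overlap and the ratio of means was 3.20, but the log2 fold change of 0.92 ± 0.26 just missed the threshold (limma adjusted p 0.0526), and it passed with equal RPKM sums (0.0431) and without control 1 (0.0354). Control means of P2ry12 and P2ry13 were under 1 RPKM, so these 2 members entered the test through their OXCT1mKO libraries. P2ry6, the UDP receptor (chromosome 7, 100937630 to 100974649, minus strand), was at 9.28 and 9.03 RPKM in OXCT1mKO and at 6.15 and 3.51 RPKM in control. The OXCT1mKO libraries lay above both controls, which were far apart, and with a log2 fold change of 0.84 ± 0.23 the gene fell just short of the threshold (limma adjusted p 0.0502). It passed with equal RPKM sums (0.038), with a minimum mean of 5 RPKM (0.0423) and with either control left out, at 1.17 without control 1 (0.0212) and at 0.51 without control 2 (0.0306).

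**Figure D2:**
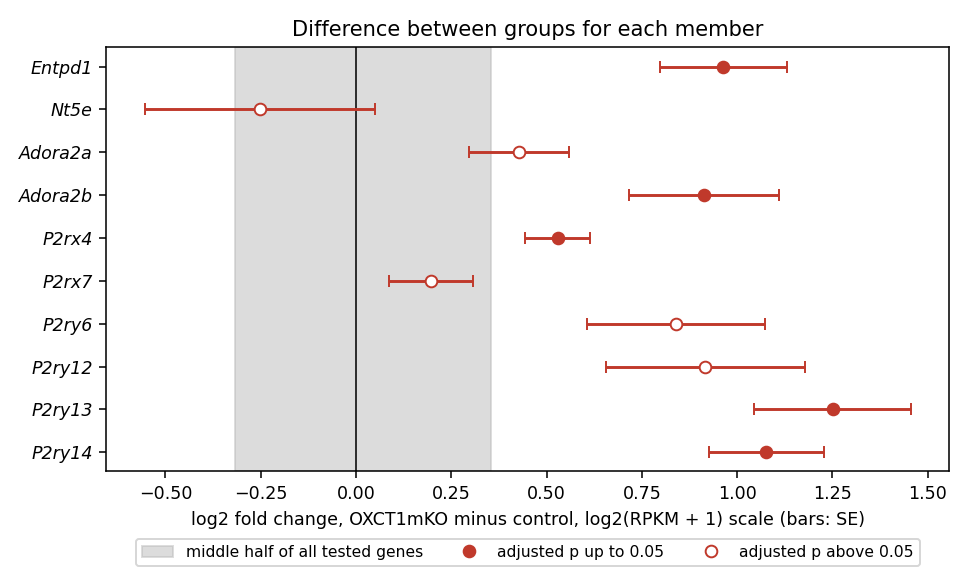
Log2 fold change of each member, OXCT1mKO minus control, on the log2(RPKM + 1) scale, with the standard error as bars; filled points passed the limma threshold and open points did not. The grey band runs from the lower to the upper quartile of all tested genes, -0.32 to 0.35, and Nt5e and P2rx7 are the members inside it.

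Summed over P2ry12, P2ry13 and P2ry14, the level was 10.4 and 8.05 RPKM in OXCT1mKO and 3.32 and 2.1 RPKM in control. The host gene Med12l was at 0.23 and 0.16 RPKM in OXCT1mKO and at 0.10 and 0.11 RPKM in control, below each of the 3 receptor genes in every library. Annotated exons of Med12l overlapped those of P2ry12 by 9 bases and those of P2ry13 and P2ry14 by 0 bases. The strand setting of the counting is not stated, so reads of Med12l on the other strand cannot be told from those of P2ry12 within that overlap. As all 3 receptor genes lie inside Med12l, reads of its unspliced RNA could fall on their exons as well. This was not tested. Gpr171, a receptor gene related to the P2Y family, rose as well (log2 fold change 1.27 ± 0.28, limma adjusted p 0.0306).

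Levels were next set against 2 leukocyte genes within each library, a comparison chosen after the values were seen and given with no test. Csf1r, the receptor of the macrophage growth factor, was at 128 and 115 RPKM in OXCT1mKO and at 45.8 and 28.8 RPKM in control (log2 fold change 1.71 ± 0.23, limma adjusted p 0.0131). Ptprc, the gene of the leukocyte antigen CD45, was at 62.0 and 62.4 RPKM in OXCT1mKO and at 27.7 and 28.0 RPKM in control (1.13 ± 0.08, limma adjusted p 0.0127). With 1 added to each RPKM, the log2 fold change of Csf1r exceeded those of all 10 members, and that of Ptprc all but P2ry13. The added 1 shrinks the values of scarce transcripts most, and the order differed by ratio of means. There P2ry13 (3.89) lay above Csf1r (3.26), and the other members lay below it. P2ry13, P2ry12 (3.20), P2ry14 (3.10) and Adora2b (2.61) lay above Ptprc (2.23), and the other members below it.

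As a percentage of Csf1r, 0 members were higher in both OXCT1mKO libraries, 5 were lower and 5 overlapped. The log2 fold change of Csf1r lay above those of 99.3% of tested genes, so a lower percentage is not particular to the members. The share of all genes that lay lower was not counted. P2rx4 was at 17.5% and 19.5% of Csf1r in OXCT1mKO and at 32.5% and 54.0% in control, and P2rx7 at 5.92% and 7.55% against 15.5% and 23.6%. Adora2a, Nt5e and P2ry6 were the other members that lay lower. Entpd1 was at 13.5% and 16.3% of Csf1r in OXCT1mKO and at 16.1% and 35.6% in control, so its groups overlapped. P2ry14 had the narrowest range, at 2.63% and 3.01% in OXCT1mKO and 2.85% and 3.11% in control. P2ry12, P2ry13 and Adora2b overlapped too.

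As a percentage of Ptprc, 2 members were higher in both OXCT1mKO libraries, 4 were lower and 4 overlapped. The log2 fold change of Ptprc lay above those of 96.9% of tested genes, and the shares of all genes were not counted here either. The higher ones were P2ry13, at 7.34% and 4.66% against 3.74% and 3.16%, and P2ry14, at 5.41% and 5.55% against 4.71% and 3.20%. P2rx4 was again lower, at 36.0% and 36.1% of Ptprc in OXCT1mKO and at 53.6% and 55.6% in control, as were P2rx7, Adora2a and Nt5e. Entpd1, at 27.7% and 30.1% in OXCT1mKO and at 26.6% and 36.6% in control, overlapped, and so did Adora2b, P2ry6 and P2ry12.

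**Figure D3:**
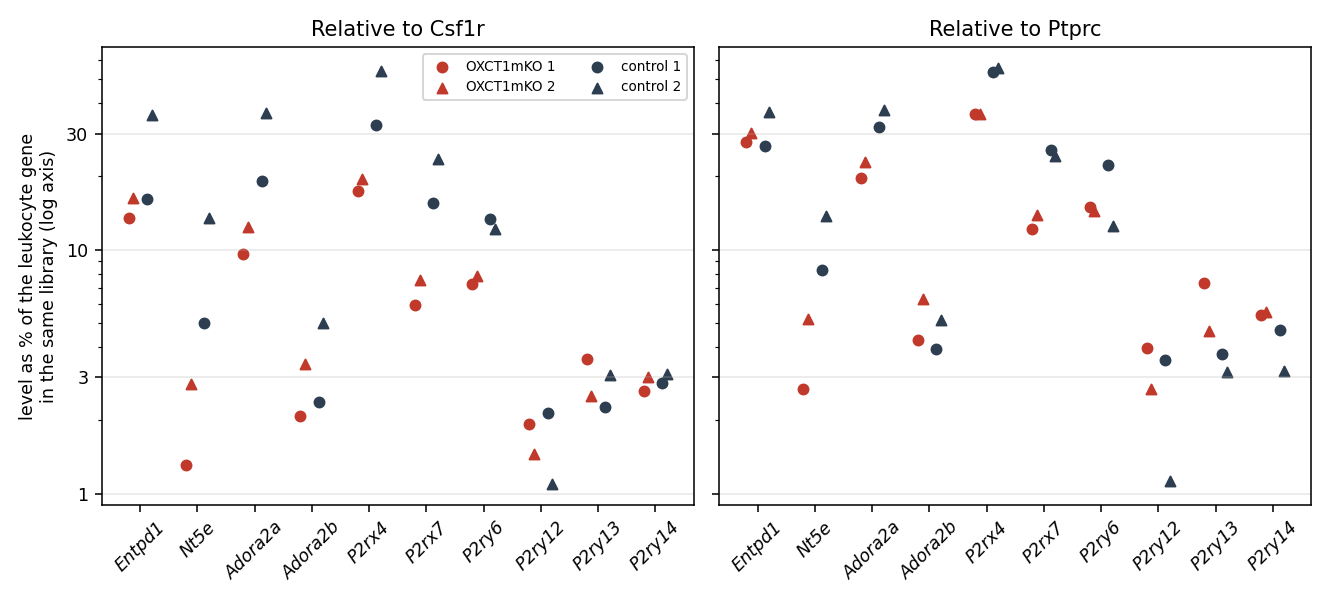
Level of each member as a percentage of Csf1r (left) and of Ptprc (right) in the same library, on a log axis, with OXCT1mKO libraries (red) left of control libraries (dark); circles are replicate 1 and triangles replicate 2. P2rx4, P2rx7, Adora2a and Nt5e lay lower in OXCT1mKO in both panels, and P2ry13 and P2ry14 lay higher in the Ptprc panel alone. Both reference genes had a higher log2 fold change than most tested genes.

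The rest of the pathway was read from 7 lists of 80 genes, 79 of them in the table and 62 of them tested. In all 28 rose and 3 fell, set beside 16.4% of all tested genes in each direction, and 0 passed when either OXCT1mKO library was left out. With no minimum level, 13 of 78 passed upward and 0 downward, so the calls of all 3 falls, those of Entpd2, Slc29a2 and Slc17a9, were lost. Of the 28, P2ry10b, Lrrc8b and Pde4a had control means under 1 RPKM and entered the test through their OXCT1mKO libraries. Among 4 other ectonucleotide enzymes tested, 1 rose and 1 fell, with a median log2 fold change of -0.21. Cd38, which cleaves NAD, rose to 55.7 and 54.5 RPKM in OXCT1mKO, against 28.2 and 34.8 RPKM in control (0.79 ± 0.12, limma adjusted p 0.0157). Entpd2, an ATPase related to Entpd1, fell to 3.73 and 3.78 RPKM, against 5.76 and 6.66 RPKM in control (-0.60 ± 0.12, limma adjusted p 0.0227).

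Of 8 tested genes that remove adenosine or carry nucleosides, 4 rose and 1 fell, with a median of 0.32. Ada, adenosine deaminase, rose to 11.99 and 12.23 RPKM in OXCT1mKO, against 5.52 and 8.59 RPKM in control (0.73 ± 0.20). Dpp4, a surface peptidase that anchors adenosine deaminase in humans, rose by more, to 45.0 and 40.4 RPKM, against 14.6 and 18.8 RPKM in control (1.32 ± 0.15). Pnp, purine nucleoside phosphorylase (0.47 ± 0.11), and the lysosomal nucleoside carrier Slc29a3 (1.06 ± 0.11) rose, while the carrier Slc29a2 fell (-0.75 ± 0.17). Adk, adenosine kinase, lay lower, at 16.05 and 11.82 RPKM in OXCT1mKO and 20.16 and 16.12 RPKM in control, and did not pass (-0.36 ± 0.18, limma adjusted p 0.182). Slc29a1, the main equilibrative carrier and the most abundant gene of the list, was at 118 and 109 RPKM in OXCT1mKO and at 97.5 and 102 RPKM in control, and did not pass.

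Of 6 tested receptors outside the members, 4 rose (P2ry1, P2ry10, P2ry10b and Gpr171) and 0 fell, with a median of 0.90. P2ry1, an ADP receptor coupled to Gq, was at 6.10 and 4.22 RPKM in OXCT1mKO and at 2.44 and 1.86 RPKM in control (0.96 ± 0.20, limma adjusted p 0.0266). P2ry10, the most abundant of them, a receptor for lysophosphatidylserine, was at 14.95 and 21.64 RPKM in OXCT1mKO and at 7.18 and 10.9 RPKM in control (0.94 ± 0.25), and its relative P2ry10b rose as well (0.85 ± 0.17). P2ry2 overlapped, at 2.365 and 2.81 RPKM in OXCT1mKO and 0.98 and 2.52 RPKM in control (0.44 ± 0.30, limma adjusted p 0.294). The remaining adenosine receptor genes stayed low. Adora1, which did not pass, was at 2.21 and 1.23 RPKM in OXCT1mKO and 2.15 and 1.76 RPKM in control. Adora3 was at 0.25 and 0.26 RPKM in OXCT1mKO and 0.32 and 0.13 RPKM in control.

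Of 8 tested genes of nucleotide release, 4 rose and 1 fell, with a median of 0.59. The volume-regulated anion channel subunits Lrrc8c (1.07 ± 0.09), Lrrc8b (0.70 ± 0.15) and Lrrc8a (0.55 ± 0.13) rose, as did the channel gene Calhm2 (0.77 ± 0.18). The vesicular nucleotide transporter gene Slc17a9, which loads ATP into secretory vesicles, fell to 4.31 and 4.97 RPKM in OXCT1mKO, against 7.98 and 6.40 RPKM in control (-0.53 ± 0.14). The pannexin channel gene Panx1 overlapped, at 3.79 and 4.29 RPKM in OXCT1mKO and 4.22 and 2.96 RPKM in control. Gja1, a connexin and the most abundant of this list, overlapped too, at 23.1 and 32.0 RPKM in OXCT1mKO and 13.8 and 27.9 RPKM in control.

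Below P2X7, 3 of 9 tested genes rose and 0 fell, with a median of 0.53. Il1b, the cytokine released after inflammasome activation, rose to 550 and 697 RPKM in OXCT1mKO, against 142 and 192 RPKM in control (1.90 ± 0.20, limma adjusted p 0.0127). Kcnk6, the potassium channel whose efflux triggers Nlrp3 in macrophages (1.02 ± 0.10), and the Nlrp3 partner Nek7 (0.34 ± 0.09) rose. Nlrp3 itself did not pass, at 38.6 and 43.2 RPKM in OXCT1mKO and 11.7 and 28.2 RPKM in control, and neither did Casp1, at 23.7 and 20.3 RPKM in OXCT1mKO and 18.8 and 17.0 RPKM in control.

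Of 14 genes of the cyclic AMP branch below adenosine receptors, 6 rose and 0 fell, with a median of 0.50. The nuclear receptor genes Nr4a1, at 267 and 253 RPKM in OXCT1mKO and 102 and 125 RPKM in control (1.20 ± 0.13), and Nr4a3 (1.30 ± 0.30) rose. So did the adenylate cyclase gene Adcy7 (1.02 ± 0.24), the phosphodiesterases Pde4b (0.95 ± 0.16) and Pde4a (0.86 ± 0.13), which break down cyclic AMP, and the transcription factor Creb1 (0.39 ± 0.10). The stimulatory G protein gene Gnas was at 75.0 and 74.8 RPKM in OXCT1mKO and at 71.7 and 82.0 RPKM in control, and the kinase subunit gene Prkar1a was at 84.2 and 87.6 RPKM in OXCT1mKO and 83.8 and 90.6 RPKM in control. Both overlapped.

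Of 13 genes of the Gi and Gq branch below P2Y receptors, 6 rose and 0 fell, with a median of 0.36. They were the inhibitory G protein gene Gnai2, at 237 and 236 RPKM in OXCT1mKO and 174 and 187 RPKM in control (0.39 ± 0.09), the phospholipase Plcb2 (1.02 ± 0.19), the calcium release channel Itpr1 (0.64 ± 0.11), the kinase subunits Pik3cg (0.80 ± 0.16) and Pik3r5 (0.89 ± 0.14), and the arrestin Arrb1 (0.64 ± 0.08). The limma adjusted p of the 31 genes that passed lay between 0.0127 and 0.0483.

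**Figure D4:**
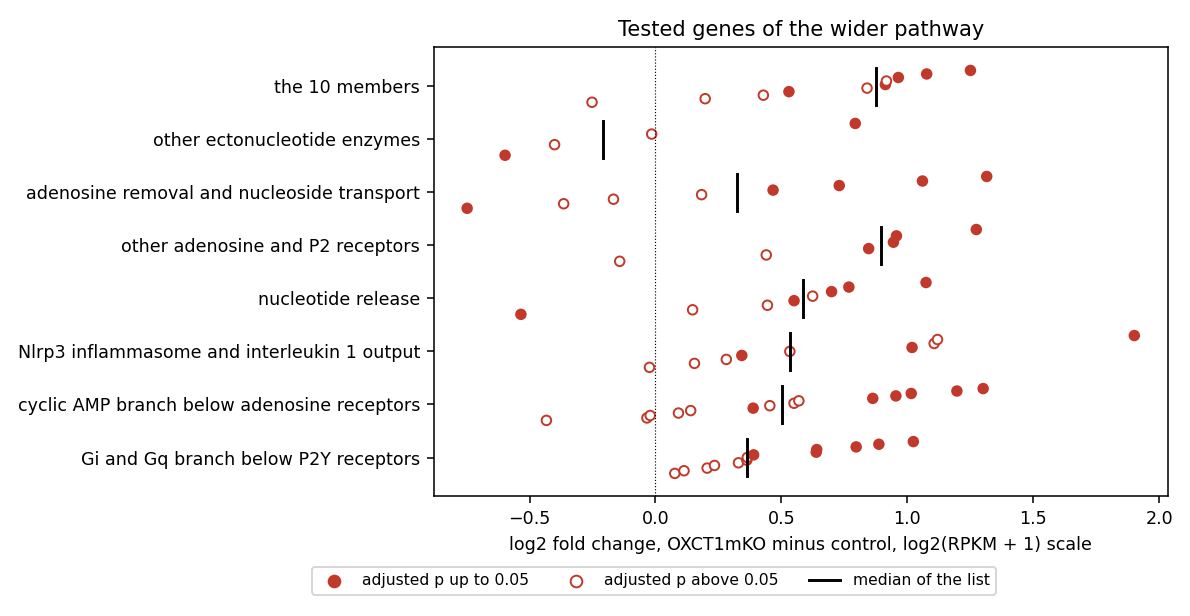
Log2 fold change, OXCT1mKO minus control on the log2(RPKM + 1) scale, of each tested gene in the 7 pathway lists, with the 10 members on top; filled points passed the limma threshold, open points did not, and the black line is the median of the list. The list medians run from -0.21 for the other ectonucleotide enzymes to 0.90 for the other receptors, beside 0.88 for the members. The other receptors include P2ry10, P2ry10b and Gpr171.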

How the data were processed

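The submitters' processing notes name STAR 2.10, R 4.0.5 and build mm10, without saying what each did. The authors deposited their RPKM values as 1 table of gene symbols by libraries. The read counter, strand setting, annotation and gene lengths are not stated. Libraries were assigned to groups by their titles. Values were transformed to log2(RPKM + 1), and the 12523 genes with a mean of at least 1 RPKM over the 4 libraries were fitted with limma 3.58.1 (R 4.3.3), with 1 coefficient for OXCT1mKO minus control and variances moderated along a trend. The tests were two-sided. Adjustment was by Benjamini-Hochberg over the whole set of tested genes, and an adjusted p up to 0.05 counted as changed. Fold changes on this scale understate the change of low genes. No label ties a library to an animal of its own, so the p-values reflect the spread among these 4 libraries, which could be technical. The members and lists were chosen with earlier results of these data known. Named were all members, Oxct1, pathway genes past the threshold, the most abundant gene of each pathway list, and neighbours. Other named genes were chosen after their values were seen. Gene positions and exon lengths came from GENCODE M21 (GRCm38), and sequences from RefSeq (GRCm38.p6). The other marker lists held regulatory T cells (0 of 2 tested genes changed), B cells (0 of 5), neutrophils (1 of 6, downward), stellate cells (1 of 4, downward), hepatocytes (1 upward and 1 downward of 6), epithelium (1 of 5, upward) and erythroid cells (0 of 5). In neutrophils and epithelium the median log2 fold change, 0.38 and -0.44, lay opposite to the 1 changed gene, Retnlg and Cdh1. The hepatocyte gene that rose, Cps1, had a control mean of 0.50 RPKM and so entered the test through its OXCT1mKO libraries.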

Additional observations from a re-analysis of the deposited data

How the results depend on the processing

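With 2 libraries per group, the calls depended most on which libraries entered. Leaving out 1 library at a time gave 0 to 7 changed members in place of 5, 0 to 30 changed pathway genes in place of 31, and 1 to 4431 changed genes in all in place of 4110. The lone library of a group was then taken to vary like the other group's libraries. The Oxct1 log2 fold change lay between -0.41 and -0.34 in these fits. With no minimum level, 2340 of 19514 genes and 13 pathway genes changed, all 13 upward, and Oxct1 had -0.37 with an adjusted p of 0.0504. With a minimum mean of 5 RPKM, 3 of the 5 members tested changed, beside 41.9% of all genes tested. With libraries scaled to equal RPKM sums without globin, 8 members and 34.1% of all genes changed, and Oxct1 had -0.26 (adjusted p 0.0763). With the replicate number as a replicate block, 8 members and 28.8% of all genes changed, and Oxct1 had -0.37 (adjusted p 0.0577). No label states that same-numbered libraries were paired. Their deviations from the group means correlated at 0.0545 across genes, which with 2 libraries per group cannot show whether they were. The members added with equal sums and with the block were Adora2a, P2ry6 and P2ry12 in both. The sign of Nt5e turned to 0.082 without OXCT1mKO 1 and to 0.030 without control 2, within a range from -0.59 to 0.082 with 1 library left out. No other member changed sign where it was tested. P2ry12 was not tested without OXCT1mKO 1, and 5 members were not tested with a minimum mean of 5 RPKM. A pseudocount of 0.1, quantile normalization and variances without the trend each gave 5 members, where 32.5%, 32.1% and 30.9% of all genes changed. No minimum level combined with a pseudocount of 0.1, chosen after seeing the data, gave 4 members and 14.2% of all genes, the call of Adora2b being lost. The read depth is approximate, so counting error for the low genes P2ry12, P2ry13 and Adora2b is not given.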
